A study of Mus musculus with 12 samples.

Results

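Transcript levels of 9 genes of the thick ascending limb (TAL) and the distal convoluted tubule (DCT) were followed in mouse kidney with and without ischemia/reperfusion (I/R) injury. The labels give the tissue as kidney cortex, whereas the methods of the study speak of kidney tissue. The genes were taken by symbol from the count table of the study, in which they are 9 of 55487 gene identifiers. They are the TAL genes Umod, Slc12a1, Kcnj1 and Cldn16, Egf of the TAL and DCT, the DCT genes Slc12a3, Pvalb and Trpm6, and Calb1 of the DCT and connecting tubule. All 9 passed the filter on low counts in every comparison.

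The TAL reabsorbs sodium chloride without water, dilutes the urine and drives the paracellular uptake of calcium and magnesium. The DCT, which follows it, carries out the fine control of salt, potassium and magnesium. The classical site of ischemic damage is the proximal tubule, but both distal segments are rich in mitochondria, and their transcripts are widely used as markers of nephron segment identity.

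The groups were named after their labels, which call the genotypes WT and ALR knockdown. By the methods of the study, Ctrl mice carried the floxed Gfer alleles (Gfer encodes augmenter of liver regeneration, ALR) without Cre, and PT-KO mice carried the same floxed alleles with Cre driven by the Ggt1 promoter, which is active in the proximal tubule. TAL and DCT cells are therefore not the intended cells of the deletion. Both genotypes were on a mixed C57BL/6 background and 6 to 8 weeks old. Both were studied without I/R and after 22 min of ischemia of both kidneys with 24 h of reperfusion (Ctrl+I/R and PT-KO+I/R), with 3 libraries in each of the 4 groups.

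The 12 libraries held 12165089 to 23123693 counts. Gfer stood at 12.8 ± 1.52 CPM (counts scaled to library size, SD, n = 3) in Ctrl against 14.0 ± 3.68 CPM in PT-KO, and after injury at 17.6 ± 2.34 CPM in Ctrl+I/R against 22.0 ± 0.674 CPM in PT-KO+I/R, so its mean was not lower in the libraries labelled as knockout. These are counts over the whole gene in whole cortex, whereas the deletion covers part of the gene in 1 cell type. Ctrl libraries 1 and 2 had 22402 and 19755 counts of Xist and 0 counts of Y-linked genes, while the third Ctrl library and the other 9 libraries had at most 11 counts of Xist together with Y-linked transcripts. Sex therefore moves with group in each comparison that involves Ctrl, the interaction included, and not in PT-KO+I/R versus Ctrl+I/R or against PT-KO. Ctrl+I/R library 2 stood apart from its group: it held the lowest value of the 3 for every gene of the set other than Trpm6, for which it held the highest. Where leaving it out changed a call or a sign of the 9 genes, both values are given. The levels are those of bulk tissue, in which fewer cells of a segment and less RNA per cell cannot be told apart.

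Umod (ENSMUSG00000030963, chromosome 7) encodes uromodulin, the most abundant protein of normal urine. Slc12a1 (ENSMUSG00000027202, chromosome 2) encodes the furosemide-sensitive cotransporter NKCC2, Kcnj1 (ENSMUSG00000041248, chromosome 9) the potassium channel ROMK that recycles potassium for it, and Cldn16 (ENSMUSG00000038148, chromosome 16) a tight junction protein needed for paracellular magnesium uptake. Egf (ENSMUSG00000028017, chromosome 3) encodes the epidermal growth factor precursor, a major urinary growth factor that stimulates magnesium uptake. Slc12a3 (ENSMUSG00000031766, chromosome 8) encodes the thiazide-sensitive cotransporter NCC, Trpm6 (ENSMUSG00000024727, chromosome 19) the apical magnesium channel of the DCT, Pvalb (ENSMUSG00000005716, chromosome 15) the calcium-binding protein parvalbumin, and Calb1 (ENSMUSG00000028222, chromosome 4) the calcium-binding protein calbindin-D28K. Annotated antisense genes overlap Umod, Slc12a1 and Egf. The antisense gene over Umod, Gm44588, had 4 to 1161 counts, at most 4.63% of the counts of Umod in a library, and those over Slc12a1 and Egf had at most 46 counts. Whether the counting used strand is not given in the sources used here, so reads of these pairs cannot be told apart.

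The sequences upstream of 5 of these genes are shown because the genes span the responses of PT-KO+I/R relative to PT-KO described here, from a gene that kept much of its level (Umod) to those that fell furthest (Slc12a1 and Egf) and the gene that rose there (Trpm6, which was lower in Ctrl+I/R relative to Ctrl), with Slc12a3 for the DCT. RefSeq promoter windows (GRCm38.p6) were found for 8 of the 9 genes, and none was matched for Calb1. The bases before the annotated start are given 5′ to 3′ on the strand of the gene, at chr7:119479283-119479512 (minus strand) for Umod, chr2:125152350-125152504 (plus) for Slc12a1, chr3:129755323-129755572 (minus) for Egf, chr8:94328958-94329200 (plus) for Slc12a3 and chr19:18749480-18749729 (plus) for Trpm6. Capitals mark motif matches.
Umod: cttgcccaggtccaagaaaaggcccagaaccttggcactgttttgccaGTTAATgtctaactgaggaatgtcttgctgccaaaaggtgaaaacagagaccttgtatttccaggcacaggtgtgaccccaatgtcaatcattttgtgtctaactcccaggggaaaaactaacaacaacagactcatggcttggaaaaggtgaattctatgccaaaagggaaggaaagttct
Slc12a1: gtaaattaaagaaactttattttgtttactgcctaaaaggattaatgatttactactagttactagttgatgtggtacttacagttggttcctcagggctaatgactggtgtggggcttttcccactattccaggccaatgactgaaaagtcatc
Egf: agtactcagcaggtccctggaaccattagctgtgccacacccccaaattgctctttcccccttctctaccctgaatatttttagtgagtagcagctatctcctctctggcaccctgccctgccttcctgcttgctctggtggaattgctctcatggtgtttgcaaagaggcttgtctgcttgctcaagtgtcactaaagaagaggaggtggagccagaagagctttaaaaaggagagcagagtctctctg
Slc12a3: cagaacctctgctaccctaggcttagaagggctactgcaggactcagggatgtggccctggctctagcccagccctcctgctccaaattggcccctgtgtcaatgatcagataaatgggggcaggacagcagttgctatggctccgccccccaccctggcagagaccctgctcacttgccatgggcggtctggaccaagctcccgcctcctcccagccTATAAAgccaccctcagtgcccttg
Trpm6: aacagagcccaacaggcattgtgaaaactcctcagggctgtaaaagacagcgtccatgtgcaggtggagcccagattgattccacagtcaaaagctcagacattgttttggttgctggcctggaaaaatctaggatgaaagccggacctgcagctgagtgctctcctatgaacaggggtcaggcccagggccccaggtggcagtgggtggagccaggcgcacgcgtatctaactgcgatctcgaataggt
The windows were searched on both strands for GTTAAT (a half-site of HNF1 factors), AAGGTCA (the estrogen-related receptor element), TGANTCA (the AP-1 element) and TATAAA (the TATA box). Of these genes, GTTAAT matched in Umod alone, and it was present in 7.1% of 32851 promoter windows of the genome. TATAAA matched in Slc12a3 alone, against 13.6% of all windows. AAGGTCA and TGANTCA, present in 4.72% and 7.81% of all windows, were not found in the windows of the 8 genes. A match is a description of the letters and not a binding site.

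Without I/R, the genes differed widely in level. Per kilobase of exon (RPKM, the CPM divided by the length in kilobases, computed with the union of annotated exons), Umod stood at 1164 ± 202 in Ctrl (SD, n = 3) and was followed by Slc12a1 at 306 ± 37.6 and Egf at 252 ± 41.8, whose ranges overlapped. Calb1 came next at 128 ± 15.6, then Slc12a3 at 98.7 ± 13.6 and Kcnj1 at 79.3 ± 8.44, which also overlapped. Pvalb (17.7 ± 2.68), Cldn16 (9.25 ± 0.345) and Trpm6 (3.25 ± 0.613) were the low members and did not overlap one another. The order of the 9 genes depends on the lengths used. It was the same in PT-KO, with the same overlapping neighbours. After I/R this order was lost below Umod: in PT-KO+I/R, Umod was still first at 764 ± 81.6, ahead of Calb1 at 26.5 (range 19.5 to 37.96) and Slc12a3 at 21.4 ± 3.30, while Slc12a1, Kcnj1, Egf, Trpm6, Cldn16 and Pvalb stood between 7.05 and 1.38, each overlapping its neighbour.

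**Figure D1:**
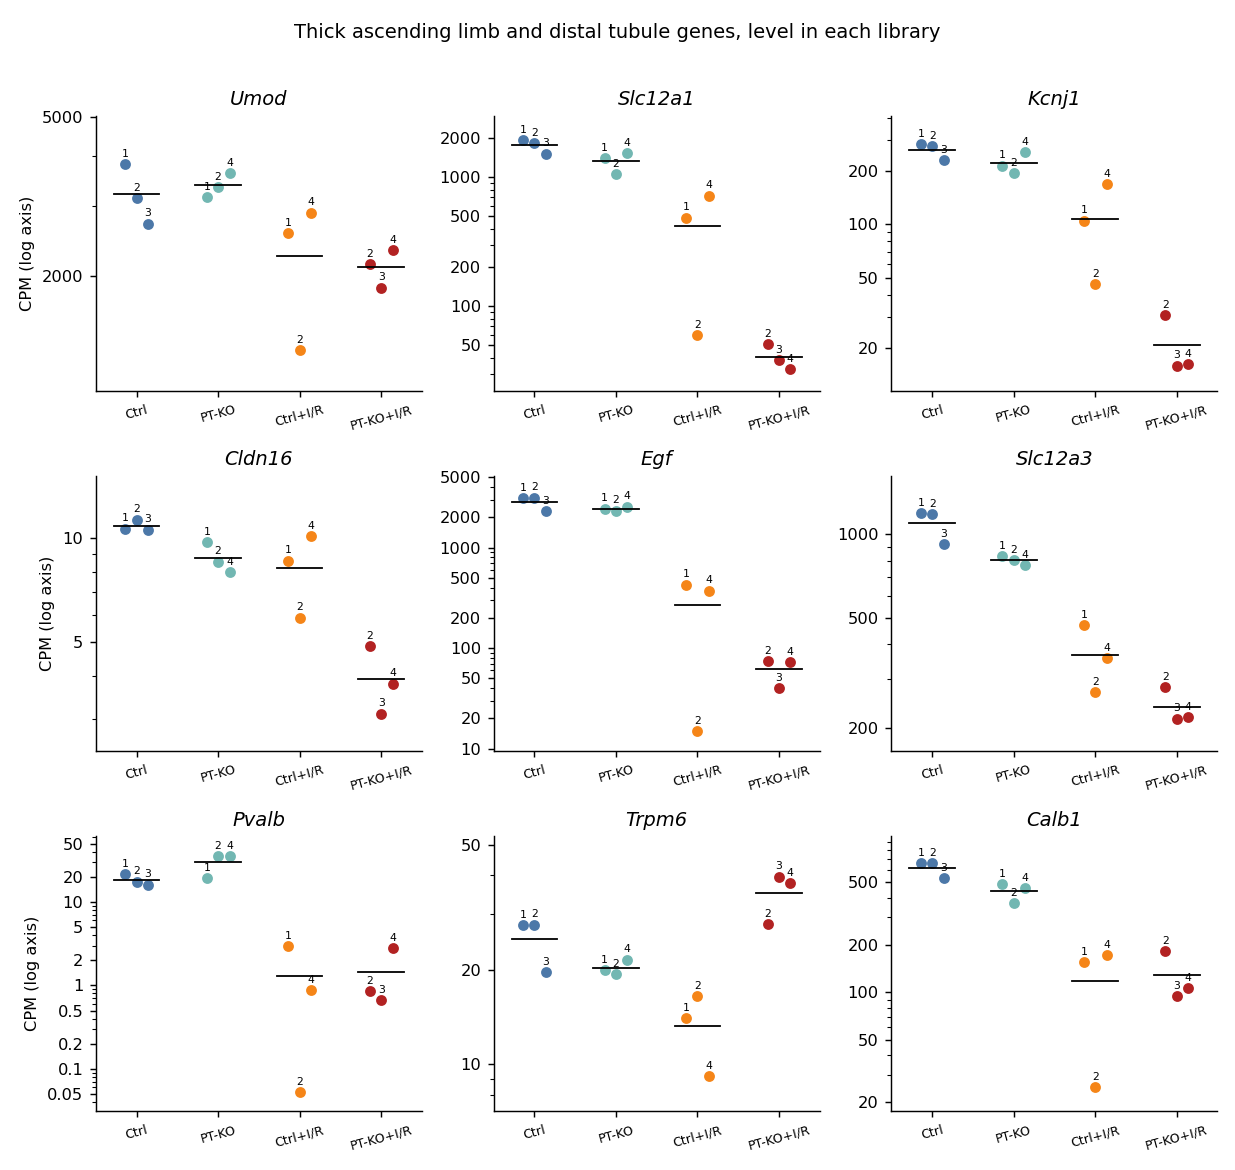
CPM of each of the 9 genes in each library on log axes whose ranges differ, by group (points are libraries with their number, bars are group means, 3 libraries per group). Umod stayed between 1306 and 3813 CPM in all 12 libraries, whereas Slc12a1 and Egf reached 32.7 and 14.99 CPM at their lowest, and Trpm6 was highest in PT-KO+I/R.

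Ctrl+I/R against Ctrl asks how the distal nephron responded to injury in mice with intact ALR. In the quasi-likelihood test of edgeR, adjusted by Benjamini-Hochberg over all 15567 genes tested, 4 of the 9 genes fell and none rose: Slc12a3, Pvalb, Trpm6 and Calb1. Over all genes 19.4% passed, and 7.97% passed in the lower direction. In 8 of the 9 genes, all but Umod, every Ctrl+I/R library was below every Ctrl library. Over all genes 43.7% did not overlap, 22.3% with the lower values in Ctrl+I/R. The exact permutation test of 3 against 3 libraries cannot give a p below 0.1.

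Among the DCT genes, Slc12a3 had 1190, 1179 and 922 CPM in the 3 Ctrl libraries and 468, 270 and 358 CPM in Ctrl+I/R. It fell by 1.58 on the log2 scale (SE 0.23, adjusted p = 0.00996 in edgeR), and remained called whichever library was left out. Pvalb went from 21.5, 17.6 and 16.1 CPM to 2.95, 0.052 and 0.89 CPM, the latter resting on 66, 1 and 14 counts. Pvalb, whose product marks the early DCT in the mouse, fell with no overlap between groups (-3.75, SE 0.74, adjusted p = 0.0197 in edgeR). The call was lost without Ctrl library 1 (adjusted p = 0.0734) or Ctrl library 2 (adjusted p = 0.0687), both in edgeR, at log2 changes of -3.63 and -3.78. The size rested on the injured libraries, with -5.36 without Ctrl+I/R library 1 and -3.18 without library 2, both called.

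Calb1 had 660, 666 and 532 CPM in Ctrl and 156, 25.0 and 173 CPM in Ctrl+I/R. The fall was -2.38 (SE 0.62, adjusted p = 0.0380 in edgeR), and the call was lost when Ctrl library 1, 2 or 3 or Ctrl+I/R library 1 was left out, with edgeR adjusted p of 0.103, 0.105, 0.0605 and 0.0862. Without Ctrl+I/R library 2 it was -1.89 and called (adjusted p = 0.00351 in edgeR). Trpm6 had 27.8, 27.8 and 19.6 CPM in Ctrl and 14.0, 16.4 and 9.17 CPM in Ctrl+I/R. The magnesium channel fell by 0.91 on the log2 scale (SE 0.23, adjusted p = 0.0350 in edgeR). Its call was lost without Ctrl library 1 or 2 (adjusted p = 0.117 for each in edgeR), without Ctrl+I/R library 1 (0.0870), with scaling by total counts (-0.80, adjusted p = 0.0612 in edgeR), and with sex as a covariate (-0.56, adjusted p = 0.167 in edgeR).

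The TAL genes and Egf had lower means that missed the threshold in edgeR, while DESeq2 called Kcnj1 (adjusted p = 0.00479) and Egf (adjusted p = 0.0142), and edgeR called Egf with total-count scaling (adjusted p = 0.0454). Slc12a1 had 1940, 1828 and 1521 CPM in Ctrl and 486, 60.0 and 720 CPM in Ctrl+I/R, a log2 difference of -2.05 (SE 0.73, adjusted p = 0.0852 in edgeR). Egf had 3099, 3129 and 2297 CPM against 427, 14.99 and 372 CPM, a log2 difference of -3.37 (SE 0.99, adjusted p = 0.0510 in edgeR). For both genes the groups did not overlap and Ctrl+I/R library 2 was far below the other 2 injured controls. Without that library the spread narrowed and both passed in edgeR, Slc12a1 at -1.53 (adjusted p = 0.0110) and Egf at -2.81 (adjusted p = 0.00314).

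Kcnj1 differed in the same direction. It had 284, 277 and 232 CPM in Ctrl and 105, 45.9 and 169 CPM in Ctrl+I/R, a log2 difference of -1.30 (SE 0.41, adjusted p = 0.0622 in edgeR), and it passed without Ctrl+I/R library 2 (-0.93, adjusted p = 0.0402) or library 4 (-1.80, adjusted p = 0.0158). Cldn16 had 10.7, 11.3 and 10.6 CPM against 8.62, 5.90 and 10.1 CPM, a log2 difference of -0.40 (SE 0.21, adjusted p = 0.210 in edgeR). Umod had 3813, 3131 and 2705 CPM in Ctrl and 2556, 1306 and 2880 CPM in Ctrl+I/R, so that the highest injured library overlapped the controls, with a log2 difference of -0.51 (95% interval -1.25 to 0.24, adjusted p = 0.281 in edgeR). The log2 differences of Cldn16 and Umod were -0.19 and -0.22 without Ctrl+I/R library 2.

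PT-KO+I/R against PT-KO asks the same of the libraries labelled as knockout. Here 9 of the 9 genes passed in edgeR, 8 lower and Trpm6 higher, and none of the 9 overlapped between groups. The background was high: 65.5% of the 15155 genes tested passed, 32.7% lower and 32.9% higher, and 70.8% did not overlap, 34.9% lower and 35.9% higher. Every one of the 9 calls was kept when any 1 library was left out. All libraries of this comparison are male.

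The steepest falls were those of Egf and Slc12a1. Egf had 2430, 2330 and 2553 CPM in PT-KO and 74.3, 39.7 and 72.5 CPM in PT-KO+I/R, 39.6-fold lower (log2 -5.31, SE 0.24, adjusted p = 8.6e-08 in edgeR). Slc12a1 had 1415, 1052 and 1534 CPM in PT-KO and 50.7, 38.5 and 32.7 CPM in PT-KO+I/R, 33.1-fold lower (log2 -5.05, SE 0.21, adjusted p = 6.2e-08 in edgeR). For both genes every injured library was far below every uninjured one. Pvalb had 19.4, 35.2 and 35.3 CPM in PT-KO and 0.86, 0.67 and 2.77 CPM in PT-KO+I/R, or 10, 15 and 43 counts, a log2 change of -4.42 (SE 0.43, adjusted p = 1.1e-05 in edgeR), which was -5.33 without PT-KO+I/R library 4.

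Kcnj1 fell 10.8-fold, from 215, 194 and 255 CPM to 30.6, 15.9 and 16.2 CPM (log2 -3.44, SE 0.24). The remaining genes moved less. Calb1 went from 488, 368 and 461 CPM to 184, 94.6 and 107 CPM (log2 -1.79, SE 0.23), and Slc12a3 from 834, 808 and 776 CPM to 280, 216 and 218 CPM (log2 -1.77, SE 0.12). Cldn16, the magnesium claudin, went from 9.72, 8.56 and 7.98 CPM to 4.88, 3.12 and 3.80 CPM (log2 -1.18, SE 0.21). Umod had the smallest fall, from 3148, 3342 and 3623 CPM to 2143, 1870 and 2317 CPM, 1.61-fold (log2 -0.68, SE 0.11, adjusted p = 4.1e-04 in edgeR). Trpm6 alone rose, from 19.9, 19.3 and 21.5 CPM to 27.98, 39.6 and 37.8 CPM, 1.73-fold (log2 0.79, SE 0.14, adjusted p = 6.4e-04 in edgeR).

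**Figure D2:**
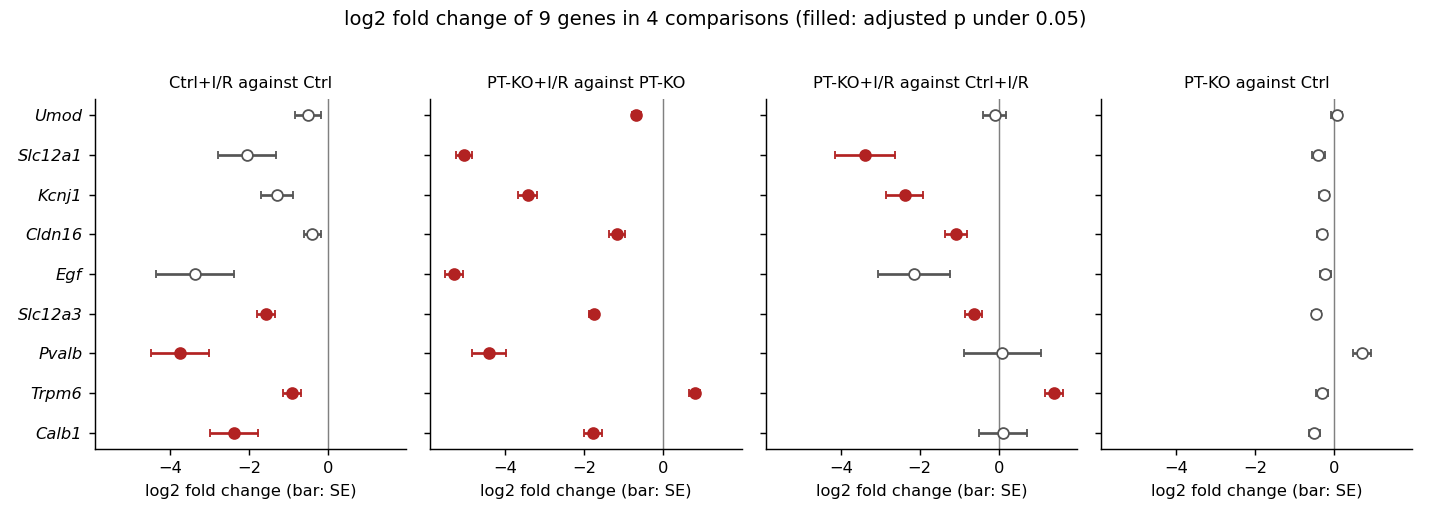
log2 fold change of the 9 genes in the 4 comparisons (x axis, log2 scale; bars are the SE; filled points have an adjusted p under 0.05 in edgeR). In PT-KO+I/R against PT-KO all points are filled and Slc12a1 and Egf lie near -5, while in PT-KO against Ctrl no point is filled.

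PT-KO+I/R versus Ctrl+I/R asks whether the injured kidneys of the 2 genotypes differed in these genes. In edgeR, 4 of the 9 genes were lower in PT-KO+I/R (Slc12a1, Kcnj1, Cldn16 and Slc12a3), Trpm6 was higher, and Umod, Egf, Pvalb and Calb1 did not pass. Over the 15281 genes tested, 46.9% passed, 24.4% lower and 22.5% higher, so that a count of 5 in 9 is near the background. Groups did not overlap for Slc12a1, Kcnj1, Cldn16 and Trpm6, or 4 of the 9 genes (3 lower and 1 higher), against 58.7% of all genes (29.1% lower and 29.6% higher). The largest differences of the 9 were those of Slc12a1 and Kcnj1.

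Slc12a1 was 10.5-fold lower in PT-KO+I/R (log2 -3.40, SE 0.76, 95% interval -5.14 to -1.65, adjusted p = 0.00824 in edgeR). The 3 PT-KO+I/R libraries, at 50.7, 38.5 and 32.7 CPM, were below all of Ctrl+I/R, at 486, 60.0 and 720 CPM, although library 2 of Ctrl+I/R came close to them. Kcnj1 was 5.20-fold lower (log2 -2.38, SE 0.47, adjusted p = 0.00492 in edgeR), at 30.6, 15.9 and 16.2 CPM against 105, 45.9 and 169 CPM. Both calls were kept when any 1 library was left out. The size moved with the injured controls: without Ctrl+I/R library 2 the log2 differences of Slc12a1 and Kcnj1 were -3.91 and -2.75, and without library 4 they were -2.77 and -1.88.

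Cldn16 was 2.12-fold lower, at 4.88, 3.12 and 3.80 CPM against 8.62, 5.90 and 10.1 CPM (log2 -1.08, SE 0.27, adjusted p = 0.0130 in edgeR). The call was lost without PT-KO+I/R library 3 (adjusted p = 0.0548 in edgeR) or library 4 (0.0511). Slc12a3 was 1.55-fold lower (log2 -0.63, SE 0.21, adjusted p = 0.0415 in edgeR), with 280, 216 and 218 CPM against 468, 270 and 358 CPM, so that 1 library of each group crossed. Its call was lost without Ctrl+I/R library 1 (log2 -0.42, adjusted p = 0.125), Ctrl+I/R library 4 (0.0622), PT-KO+I/R library 3 (0.135) or PT-KO+I/R library 4 (0.138), all in edgeR.

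Trpm6 stood at 27.98, 39.6 and 37.8 CPM in PT-KO+I/R and 14.0, 16.4 and 9.17 CPM in Ctrl+I/R. It was 2.65-fold higher (log2 1.40, SE 0.22, adjusted p = 0.00201 in edgeR) with no overlap, and the call was kept without any 1 library. Its levels in PT-KO+I/R were also above those of every uninjured library. The margin was narrow and rests on the scaling, with 27.98 CPM in PT-KO+I/R library 2 against 27.84 CPM in Ctrl library 2.

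The result for Egf rested on a single library. Its levels of 74.3, 39.7 and 72.5 CPM in PT-KO+I/R lay below 2 of the injured controls (427 and 372 CPM) and above Ctrl+I/R library 2 (14.99 CPM), and the log2 difference was -2.15 (SE 0.92, 95% interval -4.28 to -0.02, adjusted p = 0.0890 in edgeR). Without library 2 it was -2.71 and passed (adjusted p = 1.9e-04 in edgeR). Calb1 and Pvalb had wide intervals, 0.11 (95% interval -1.28 to 1.49) and 0.09 (-2.16 to 2.34), and their sign turned without Ctrl+I/R library 2, to -0.38 and -0.47. For Umod the log2 difference was -0.10 (95% interval -0.76 to 0.55, adjusted p = 0.791 in edgeR), which does not show that the groups were alike.

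PT-KO against Ctrl compares the genotypes without injury. In edgeR no gene passed of the 15291 tested (0%, with 2573 genes at an unadjusted p under 0.05), and DESeq2 called 458 genes, of which Slc12a3 and Calb1 are 2. The groups did not overlap for 3 of the 9 genes, against 21% of all genes (11.2% lower and 9.79% higher in PT-KO). These were Cldn16 (9.72, 8.56 and 7.98 CPM against 10.7, 11.3 and 10.6 CPM), Slc12a3 (log2 -0.45, 95% interval -0.73 to -0.17, adjusted p = 0.203 in edgeR) and Calb1 (log2 -0.50, 95% interval -0.83 to -0.17, adjusted p = 0.207 in edgeR), each with the lower values in PT-KO. Pvalb had the higher mean in PT-KO (log2 0.70, 95% interval 0.18 to 1.23, adjusted p = 0.227 in edgeR), with PT-KO library 1 within the range of Ctrl. Without the third Ctrl library, the only male one, 4 of the 9 genes passed in edgeR (Egf -0.35, Slc12a3 -0.56, Trpm6 -0.46 and Calb1 -0.60), as did 1930 of the 15597 genes tested. That comparison is between 2 female and 3 male libraries, in which sex and genotype cannot be told apart.

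The interaction of genotype and I/R, fitted on all 12 libraries, tests whether the response to I/R differed between the genotypes. It passed in edgeR for 3 of the 9 genes against 30.6% of the 16168 genes tested, so that the count is near the background. The difference with I/R was more negative in PT-KO for Slc12a1 (-2.98, SE 0.82, adjusted p = 0.0175) and for Kcnj1 (-2.11, SE 0.53, adjusted p = 0.0108). For Trpm6 the differences had opposite directions, lower with I/R in Ctrl and higher in PT-KO (1.72, SE 0.29, adjusted p = 0.00127 in edgeR). With sex as a covariate the interaction of Slc12a1 was -3.19. The Ctrl level of that fit rests on the third Ctrl library alone, so no call is read from it. Without Ctrl+I/R library 4 the interaction of Slc12a1 was -2.36 and passed (adjusted p = 0.0426 in edgeR). Without Ctrl+I/R library 2, Egf (-2.48, adjusted p = 1.8e-04) and Cldn16 (-0.97, adjusted p = 0.0122) passed too, and Cldn16 also passed without PT-KO+I/R library 2 (-0.94, adjusted p = 0.0338), all in edgeR.

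Setting each gene against Umod of the same library gives a measure that does not depend on library scaling. In counts per kilobase of exon, Slc12a1 stood at 24.4, 27.99 and 27.0 per 100 of Umod in Ctrl and at 21.6, 15.1 and 20.3 in PT-KO. The ratio was 9.12, 2.20 and 11.99 in Ctrl+I/R and 1.13, 0.987 and 0.677 in PT-KO+I/R, so the 2 injured groups did not overlap (log2 difference -2.77, exact permutation p = 0.1, the smallest that 3 against 3 libraries allow). The ratio of Egf was 19.9, 24.5 and 20.8 in Ctrl and 18.9, 17.1 and 17.3 in PT-KO. After injury it was 4.09, 0.281 and 3.17 in Ctrl+I/R against 0.849, 0.520 and 0.767 in PT-KO+I/R. Here the injured groups overlapped through Ctrl+I/R library 2 (exact permutation p = 0.4). Trpm6 went the other way, with 0.196, 0.451 and 0.114 per 100 of Umod in Ctrl+I/R and 0.467, 0.758 and 0.584 in PT-KO+I/R. Slc12a1 and Umod, both genes of the TAL, thus moved by unequal amounts within the same libraries. For Cldn16, also of the TAL, the ratio to Umod overlapped between libraries with and without I/R in each genotype.

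**Figure D3:**
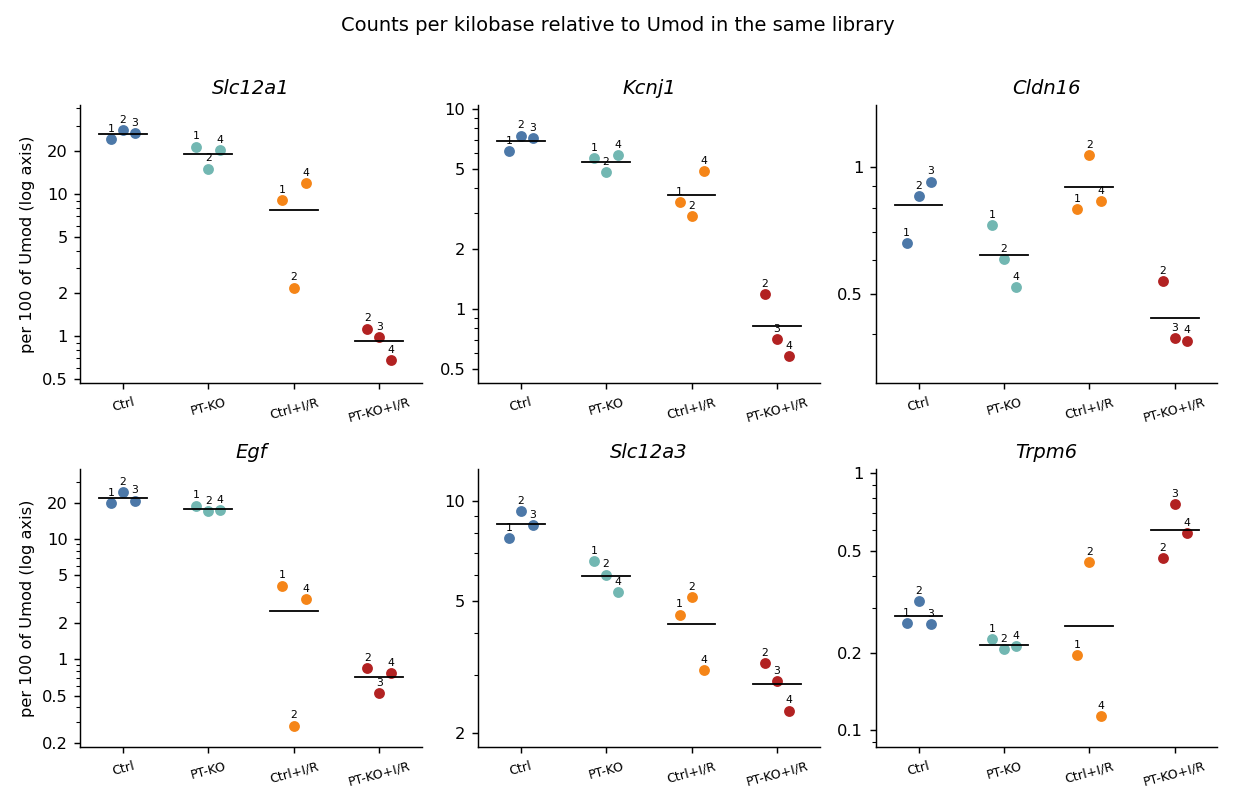
Level per length of 6 genes relative to 100 of Umod in the same library, on log axes whose ranges differ, by group (points are libraries with their number, bars are group means). Slc12a1 falls from 24.4 to 27.99 in Ctrl to 0.677 to 1.13 in PT-KO+I/R, while Trpm6 in PT-KO+I/R lies above every library of Ctrl+I/R.

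Across the 12 libraries, the log2 CPM of the 28 pairs of genes without Trpm6 had Pearson r of 0.58 to 0.99, and the 8 pairs with Trpm6 had r of -0.58 to 0.12. The points share libraries and the 4 groups, so these are descriptions. Of the 9646 genes whose mean level reached 10 CPM, those most like Slc12a1 were Slc16a7 (r = 0.996), Ppp1r1a (0.996) and Ppp1r1b (0.994). For Umod they were Gpx6 (0.957), Kcnq1 (0.947) and Cacnb4 (0.942), for Slc12a3 Dmac2 (0.990), Dnajc28 (0.988) and Cela1 (0.984), and for Pvalb Ces1e (0.970), Tmem59 (0.968) and Smg6 (0.966).

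Other genes of the same pathways were read from 5 lists. In the list of TAL salt transport, which holds the chloride channels, the sodium pump and the claudin of the paracellular sodium path, 2 of 13 genes were higher and 5 lower when PT-KO+I/R was set against the injured controls, with a median log2 difference of -0.24. Of all genes tested 22.5% were higher and 24.4% lower, so these counts are near the background. The median of all genes tested was -0.005. Cldn10, the sodium-selective claudin of the TAL, had 18.5, 14.3 and 21.3 CPM in PT-KO+I/R against 94.5, 64.5 and 118 CPM in Ctrl+I/R and 128 to 160 CPM in the uninjured libraries. It was lower at a log2 difference of -2.37 (adjusted p = 4.2e-04 in edgeR) with no overlap. Bsnd, which encodes the chloride channel subunit barttin, was also lower (-2.32, adjusted p = 0.0182 in edgeR), at 6.42, 4.50 and 2.71 CPM against 19.7, 6.27 and 41.0 CPM, where 1 library of each group crossed. The call of Bsnd was lost without PT-KO+I/R library 3 (adjusted p = 0.0645 in edgeR) or 4 (0.0763), and the difference was -1.54 without Ctrl+I/R library 4. Slc9a3, the sodium-proton exchanger NHE3 that the proximal tubule expresses as well, was higher (1.15, adjusted p = 0.00438), as was Oxsr1, a kinase that activates the cotransporters (0.71, adjusted p = 0.00209), both in edgeR.

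In the list of TAL identity and uromodulin processing, 2 of 10 genes were higher and 5 lower (median -0.74), beside 22.5% and 24.4% of all genes. Sostdc1, a secreted antagonist of BMP and Wnt signals, had 2.74, 4.76 and 3.61 CPM in PT-KO+I/R against 33.2, 18.5 and 86.1 CPM in Ctrl+I/R (log2 -3.61, adjusted p = 0.00201 in edgeR), and without Ctrl+I/R library 4 the difference was -2.79. Tmem207 was nearly undetected in PT-KO+I/R, at 1, 3 and 1 counts, against 124, 12 and 100 counts in Ctrl+I/R and 252 to 467 counts in the uninjured libraries. It was called lower (adjusted p = 0.00411 in edgeR), and no fold is given at these counts. The orphan nuclear receptor gene Esrrb took the direction of Trpm6 between the injured groups, with 32.1, 32.7 and 40.9 CPM in PT-KO+I/R against 13.6, 10.1 and 21.6 CPM in Ctrl+I/R (log2 1.22, adjusted p = 0.00718 in edgeR). Its means without I/R were 40.2 CPM in Ctrl and 30.3 CPM in PT-KO, and the PT-KO+I/R libraries overlapped both of these groups. Irx3, a transcription factor gene of nephron patterning, was higher by 0.48 (adjusted p = 0.0131 in edgeR).

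In the list of DCT sodium chloride transport and its control, 4 of 14 genes were higher and 5 lower (median -0.54), again beside 22.5% and 24.4% of all genes. Sgk1, the aldosterone-induced kinase, had 456, 382 and 438 CPM in PT-KO+I/R, above every one of the other 9 libraries, and 128, 73.9 and 199 CPM in Ctrl+I/R (log2 1.66, adjusted p = 0.00440 in edgeR). Its target Nedd4l, a ubiquitin ligase that limits sodium transporters at the membrane, was higher by 0.79 (adjusted p = 0.00285). Hsd11b2, the enzyme that protects the mineralocorticoid receptor from glucocorticoids, was lower by 2.54 on the log2 scale (-2.54, adjusted p = 0.00270 in edgeR), at 12.9, 6.94 and 7.35 CPM against 51.9, 24.5 and 78.6 CPM. Bsnd, described above, belongs to this list too.

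The list of magnesium and calcium handling had 1 gene higher and 9 lower of 17 tested (of 18 listed), with a median of -0.79, beside 22.5% higher and 24.4% lower over all genes. Slc8a1, the basolateral sodium-calcium exchanger of the DCT and connecting tubule, had 28.2, 18.4 and 21.5 CPM in PT-KO+I/R against 88.7, 29.1 and 130 CPM in Ctrl+I/R (log2 -1.88, adjusted p = 0.0137 in edgeR), a call lost without PT-KO+I/R library 3 (adjusted p = 0.0579) or 4 (0.0576). Cldn10 belongs to this list as well. Egfr, the receptor of the Egf product, was the gene that was higher (0.66, adjusted p = 0.0201 in edgeR), in the libraries in which Egf itself was at 39.7 to 74.3 CPM. Its call was lost without Ctrl+I/R library 1 or 4 or PT-KO+I/R library 3 or 4 (adjusted p = 0.0784, 0.0540, 0.0587 and 0.0788 in edgeR). Of the 4 DCT transcription factor genes, 3 were lower and none higher (median -1.16), with the same background. Tfap2b stood at 16.3, 15.3 and 11.9 CPM against 34.6, 27.9 and 41.2 CPM (log2 -1.26, adjusted p = 0.00144), and Emx1 differed by -1.50 (adjusted p = 0.0116), both in edgeR. The call of Emx1 was lost without PT-KO+I/R library 3 (adjusted p = 0.0518) or 4 (0.0534).

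**Figure D4:**
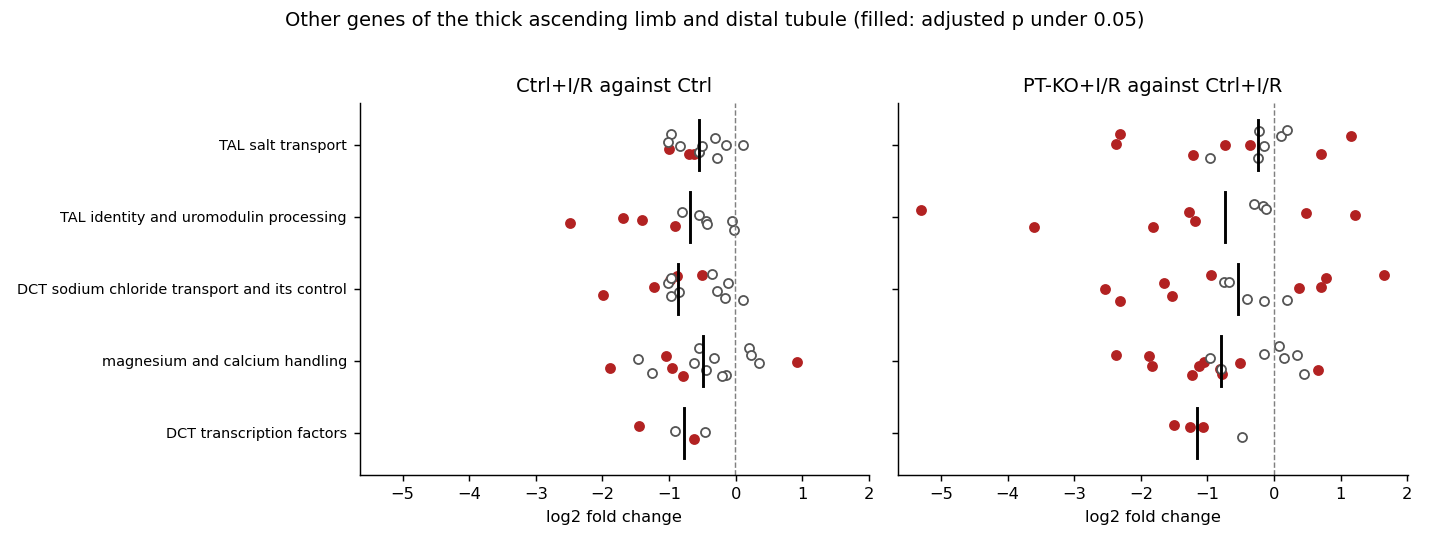
log2 difference of every tested gene of the 5 lists in Ctrl+I/R against Ctrl (left) and in PT-KO+I/R versus Ctrl+I/R (right; points, log2 scale; filled points have an adjusted p under 0.05 in edgeR; the bar is the median of the list). On the right, medians lie between -1.16 and -0.24, with called genes on both sides in 4 of the 5 lists, and the leftmost point, Tmem207, rests on at most 3 counts in each PT-KO+I/R library.

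In Ctrl+I/R against Ctrl the same lists had 0 higher and 3 lower of 13 (TAL salt transport), 0 and 4 of 10 (TAL identity), 0 and 5 of 14 (DCT sodium chloride transport), 1 and 4 of 16 tested (magnesium and calcium) and 0 and 2 of 4 (DCT transcription factors), where 11.4% of all genes were higher and 7.97% lower. The gene that rose was Trpv5, the apical calcium channel, from 27.4 to 34.4 CPM in Ctrl to 52.3 to 66.0 CPM in Ctrl+I/R (log2 0.92, adjusted p = 0.00831 in edgeR), and Trpv5 was named here after its values were seen. In PT-KO+I/R it had 28.2, 39.3 and 31.9 CPM, lower than the injured controls with no overlap (log2 -0.81, adjusted p = 0.00331 in edgeR). In PT-KO+I/R against PT-KO, 10 of 13, 8 of 10, 9 of 14, 12 of 16 tested and 4 of 4 genes were lower, and 1, 0, 3, 2 and 0 were higher, where 32.7% of all genes were lower and 32.9% higher. In PT-KO against Ctrl no gene of the 5 lists passed in edgeR. The comparisons share groups, so that their counts are not independent of one another.

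Markers of other cells moved with I/R as well. The summed level of 11 proximal tubule genes was 19610 to 24756 CPM in Ctrl and 23418 to 27528 CPM in PT-KO. After injury it was 7529 to 14212 CPM in Ctrl+I/R against 7874 to 9016 CPM in PT-KO+I/R. Between the injured groups 46.9% of all genes tested passed, 24.4% lower and 22.5% higher in PT-KO+I/R, which is the background of the marker counts given here. Of the 11 genes, 5 were called lower between the injured groups and none higher: Slc5a12 (374 against 32.2 CPM), Slc13a3 (396 against 58.5 CPM), Cubn (528 against 129 CPM), Lrp2 (1909 against 716 CPM) and Slc34a1 (1982 against 887 CPM), each with the lower mean in PT-KO+I/R. That of 6 tubular injury genes (Havcr1, Lcn2, Krt20, Vcam1, Clu and Spp1) was 905 to 1908 CPM in Ctrl and 738 to 1037 CPM in PT-KO, against 10583 to 27273 CPM and 23189 to 25245 CPM after injury. Most of this sum was Spp1, with means of 15320 and 17204 CPM in Ctrl+I/R and PT-KO+I/R. Of the 6 genes, Krt20 (32.4 against 1052 CPM), Lcn2 (286 against 1544 CPM) and Havcr1 (1092 against 3141 CPM) were higher in PT-KO+I/R and Vcam1 was lower (11.04 against 28.1 CPM), in edgeR. Havcr1 (the kidney injury molecule KIM-1) was highest among the injured controls in library 2, at 2107 CPM against 786 and 381. For 4 inner medulla genes the sums were 131 to 163, 97.9 to 196, 222 to 342 and 344 to 497 CPM in Ctrl, PT-KO and the injured groups of each. Cryab carried the higher sums of the injured groups, with a mean of 182 CPM in Ctrl+I/R and 347 CPM in PT-KO+I/R, whereas Slc14a2 was lower in PT-KO+I/R (28.2 against 56.4 CPM, adjusted p = 0.00849 in edgeR) and Slc4a11 and Akr1b3 did not pass between the injured groups. Slc14a2, a urea transporter gene of the inner medulla, also varied within a group, at 42.4, 10.7 and 46.1 CPM in PT-KO. Leukocyte genes (8 genes) summed to 33.4 to 35.6, 27.5 to 34.4, 96.3 to 180 and 49.1 to 61.3 CPM in the same order, which also holds for the lists that follow. Between the injured groups, Ptprc (30.4 against 6.13 CPM), Adgre1 (7.98 against 0.384 CPM) and Lyz2 (64.4 against 4.67 CPM) were lower in PT-KO+I/R, whereas Cd68 (15.5 against 26.3 CPM) and S100a8 (5.38 against 15.4 CPM) were higher.

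Markers of other distal cell types had lower sums after I/R in both genotypes. Principal cell genes (7 genes) summed to 358 to 398, 288 to 449, 122 to 334 and 112 to 174 CPM, and intercalated cell genes (7 genes) to 420 to 534, 398 to 414, 153 to 287 and 191 to 193 CPM. Called lower in PT-KO+I/R relative to the injured controls were 2 of the 7 principal cell genes, Aqp4 and Avpr2. The same held for 2 of the 7 intercalated cell genes, Slc4a1 (14.6 against 0.233 CPM) and Atp6v1b1 (54.2 against 10.4 CPM). No gene of either list was called higher. Over all genes 24.4% were lower and 22.5% higher, so these counts are near the background, which also holds for the lists that follow as the share to compare with. The median log2 difference was -0.63 for the principal cell list and 0.03 for the intercalated cell list, whose sums overlapped between the injured groups. Podocyte genes (5 genes) summed to 463 to 626, 374 to 478, 358 to 392 and 363 to 419 CPM, and endothelial genes (6 genes) to 357 to 410, 356 to 393, 356 to 376 and 410 to 437 CPM. Between the injured groups 1 podocyte gene, Nphs1, and 1 endothelial gene, Plvap, were called lower in PT-KO+I/R, and Cdh5, Kdr and Emcn were called higher. No marker gene of these lists was at 0 in every library of a group. The part of these markers in the changes of the 9 genes was not tested.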

How the data were processed

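RNA-seq was performed on kidney cortex in 12 libraries, 4 groups of 3. The authors deposited 1 table of raw counts per gene, made with HISAT2 2.0.4 and mm10 per the submitters' processing notes. The counting program, its annotation and its strand setting are not given in the sources used here. All samples were grouped by their labels. The third Ctrl column carries the number 3, which no Ctrl sample has. It was used as a Ctrl library under that column number, as a name, and was paired with no other library.

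Counts were tested with edgeR 4.0.16 (R 4.3.3; filterByExpr, TMM, quasi-likelihood F test on the 6 libraries compared, Benjamini-Hochberg adjusted p under 0.05), and the interaction on all 12. Libraries held 12165089 to 23123693 counts. CPM used TMM over 12 libraries, and lengths came from GENCODE M21. Log2 CPM for exact tests had a pseudocount of 0.5 counts. The SE is the log2 fold change divided by the root of F, intervals are 95%, and the test was first tried on simulated data. The labels number the replicates without saying that each is a separate mouse, so p-values measure the spread between these samples. Named genes are the 9, the 2 largest rises and 2 largest falls called per list in PT-KO+I/R versus Ctrl+I/R, and the 3 genes of highest r. The genes and lists were chosen with earlier results of these data known. Same-numbered libraries were checked for pairing: 1 of 12 pairs correlated above 0.1 (median -0.02), so the numbers were not treated as pairs. Alternatives were DESeq2 1.42.0, other scaling and filters, a replicate block, sex, and leaving out each library.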

Additional observations from a re-analysis of the deposited data

Results flagged for a closer look

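By edgeR's test of the interaction on all 12 libraries, the response to I/R differed between the genotypes for 3 of the 9 genes. Of all genes 30.6% passed, so that a count of 3 in 9 is near the background. For Slc12a1 the interaction was -2.98 on the log2 scale, for Kcnj1 it was -2.11 and for Trpm6 it was 1.72. Slc12a1 and Kcnj1 were lower in every injured library than in every uninjured library of the same genotype, and the mean log2 difference was larger in PT-KO. Trpm6 was lower in all 3 Ctrl+I/R libraries than in Ctrl and higher in all 3 PT-KO+I/R libraries than in PT-KO. With sex as a covariate the interaction of Slc12a1 was -3.19. The Ctrl level of that fit rests on the third Ctrl library alone, so no call is read from it. With the replicate number as a block, fewer of the 9 genes were called in the interaction.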

How the results depend on the processing

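Of 672 gene results under an alternative setting, 594 kept their direction and their side of the threshold, 24 lost a call, 35 gained one and 19 turned sign, none of the 19 being called to begin with. The numbers of the 9 genes called were 4 in Ctrl+I/R against Ctrl, 0 in PT-KO against Ctrl, 5 in PT-KO+I/R versus Ctrl+I/R, 3 in the interaction and 9 in PT-KO+I/R against PT-KO. The first became 7 with no filter on low counts, 7 with all 12 libraries fitted together and 6 with DESeq2. The number in PT-KO against Ctrl became 2 with DESeq2. Over all genes, the 3019 calls of Ctrl+I/R against Ctrl became 4938 with all 12 libraries and 2029 with sex added to that fit, the 0 of PT-KO against Ctrl became 458 with DESeq2, 388 with no filter and 1 with scaling by total counts, and the 4953 of the interaction became 3233 with sex as a covariate. Total-count scaling moved the median of all genes in PT-KO+I/R versus Ctrl+I/R from -0.005 to -0.21, and the split from 3444 higher and 3725 lower to 1978 and 5080. Signs turned with total counts for Umod in PT-KO against Ctrl (-0.065) and for Pvalb (-0.11) and Calb1 (-0.076) in PT-KO+I/R versus Ctrl+I/R. With sex as a covariate, and so against the third Ctrl library alone, they turned for Egf (0.085) and Trpm6 (0.047) in PT-KO against Ctrl. The cause was not tested.

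With the replicate number as a block, the numbers of the 9 genes called were 7, 5, 1, 1 and 9 in the same order. Over all genes 3612 passed in Ctrl+I/R against Ctrl, 1378 in PT-KO against Ctrl and 1683 (of 7169 without the block) in PT-KO+I/R versus Ctrl+I/R. In the interaction 3215 passed, and in PT-KO+I/R against PT-KO 8437 did. Under the block Umod turned to -0.096 in PT-KO against Ctrl, 0.20 in PT-KO+I/R versus Ctrl+I/R and 0.19 in the interaction, and Slc12a3 to 0.047 in the interaction. Same-numbered libraries share only a number. A library whose number is not in the other group does not add to such a fit: in the comparisons with Ctrl these are the third Ctrl library, its only male one, and library 4 of the other group, so that the calls move with the loss of these libraries too.

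Leaving out 1 library gave 1 to 7, 0 to 4, 3 to 6, 3 to 5 and 9 of the 9 genes called in the same order, and over all genes 379 (without Ctrl replicate 1) to 4061 in Ctrl+I/R against Ctrl and 0 to 1930 (without Ctrl replicate 3) in PT-KO against Ctrl. Ranges across 0 were those of Umod, -0.043 to 0.20 in PT-KO against Ctrl, -0.38 to 0.12 in PT-KO+I/R versus Ctrl+I/R and -0.45 to 0.053 in the interaction, of Pvalb, -0.82 to 1.63 and -1.57 to 0.97 in the last 2, of Calb1, -0.38 to 0.49 in PT-KO+I/R versus Ctrl+I/R, and of Slc12a3, -0.36 to 0.042 in the interaction. Depth limits Pvalb after I/R, at 1 to 66 counts, and Tmem207 in PT-KO+I/R, at 1 to 3 counts.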
